A study of Homo sapiens with 22 samples.

Results

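The genes described here are 10 amino acid transporters of the human intestinal cell line Caco-2, out of 61487 genes counted. They were chosen by name, as *SLC3A2*, *SLC7A5*, *SLC7A6*, *SLC7A7*, *SLC7A1*, *SLC1A4*, *SLC1A5*, *SLC38A1*, *SLC38A2* and *SLC6A9*, and all 10 were among the 20373 genes left for testing by a filter on low counts, which asked for more than 5 counts in 3 or more samples. The choice was made with earlier results of these data known. Of the 10, 8 were higher in cells exposed to the faecal water of untreated mice (FWctl) than in cells given phosphate-buffered saline (PBS), by 1.49-fold for *SLC38A2* to 5.98-fold for *SLC1A4*. The same 8 were lower with faecal water taken from the mice under antibiotics (FWatb) than with FWctl. *SLC7A7* was lower with both faecal waters than with PBS, *SLC7A6* did not pass the test in any comparison, and none of the 10 passed it with the antibiotic cocktail itself (ATB).

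Amino acids cross the cell membrane on carriers that differ in the amino acids they take and in whether they need sodium. Several light chains of the SLC7 family reach the membrane only when bound to the heavy chain SLC3A2, and most of them are exchangers that take up 1 amino acid while releasing another. Sodium-coupled carriers such as those of the SLC1, SLC6 and SLC38 families load the cell with small neutral amino acids and glutamine, which the exchangers then trade for leucine and other essential amino acids. In enterocytes these carriers serve both the absorption of dietary amino acids and the cell's own protein synthesis. When amino acids run short or proteins misfold, kinases that phosphorylate eIF2alpha raise translation of the factor ATF4, which is known to induce several of these transporter genes.

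Caco-2 is an established line from a human colorectal adenocarcinoma, for which no differentiation step or genetic change was stated. The cells grew in a high-glucose medium with glutamine, serum, nonessential amino acids and an antibiotic-antimycotic in every group, so the PBS cells also received the latter. For the last 48 h, 10% of the volume of the medium was PBS (n = 4), FWctl (n = 7), FWatb (n = 7) or ATB, the antibiotic cocktail (n = 4). In the drinking water of the mice this cocktail held neomycin at 1 g/L, vancomycin at 0.5 g/L and meropenem at 0.25 g/L. Its concentration in the medium of the cells was not stated. Faecal water was the supernatant of centrifuged mouse faeces homogenized in PBS, so its soluble mouse, dietary and bacterial material came together. The FWatb came from the same mice after antibiotic treatment. The study left 1 FWctl sample out as an outlier. Its replicate number was not stated, and it was taken here to be replicate 1, which is shown apart, so that 21 samples entered the fit and FWctl counts 6 samples unless stated otherwise. The comparisons with PBS share the same PBS samples.

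Total counts ranged from 7118302 to 18726967 per sample over the 21 samples. The libraries formed 2 sets by their share of counts on the ribosomal DNA repeat, with 0.0163 to 0.0805% in 8 of the 22 libraries and 1.87 to 8.19% in 14, and the low set held 2 PBS, 3 FWctl (replicate 1 included) and 3 ATB libraries but no FWatb library. Of 12 markers of intestinal epithelium, 11 passed the filter, while *CDX1*, *KRT20* and *LGALS4* had mean normalized counts under 15. The summed epithelial markers ranged from 39856 to 45035 in PBS, 46561 to 52244 in FWctl, 39962 to 51114 in FWatb and 42576 to 44713 in ATB. The sum does not stand for each marker. Of the 11, 3 were called higher and 4 lower with FWctl than with PBS, beside 24.3% and 22.1% of all genes. Of 8 markers of leukocytes and blood, 6 had means under 15, and the sum of all 8 ranged from 155 to 184 in PBS, 81.1 to 127 in FWctl, 148 to 220 in FWatb and 158 to 171 in ATB, and the part of these differences in the results was not tested. The sum of 8 fibroblast and endothelial markers ranged from 243 to 402. Of the 5 of these that passed the filter, 2 were called higher and 2 lower with FWctl than with PBS. Of the 4 leukocyte and blood markers that passed it, 1 was called higher and 1 lower.

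Promoter sequences were looked at because the 8 genes that rose with FWctl moved together. The letters searched were TGATGNAA, the core of the composite element that ATF4 binds with a C/EBP partner, on both strands (TTNCATCA on the gene's strand where the match is on the other), in the RefSeq windows of build GRCh38.p14 from 250 bases before to 50 bases after each annotated start. Of the 10 genes, 5 had a match in 1 of their windows, against 4.46% of 27305 genes with a window. By windows, 5 of the 18 of these genes held a match (27.8%), against 3.62% of 35116 windows. All 5 were among the genes that rose with FWctl, as were 8 of the 10 before the search. The genes were chosen with earlier results of these data known, so these counts are descriptions and not a test. The stretches below show these matches in capitals with up to 10 bases on each side, 5′ to 3′ on the gene's strand.

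*SLC3A2*, chr11:62881726-62881748, plus strand: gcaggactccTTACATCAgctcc
*SLC7A1*, chr13:29595664-29595691, minus strand: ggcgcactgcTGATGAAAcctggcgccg
*SLC1A4*, chr2:64989382-64989409, plus strand: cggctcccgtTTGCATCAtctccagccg
*SLC1A5*, chr19:46784894-46784921, minus strand: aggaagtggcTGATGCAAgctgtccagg
*SLC38A1*, chr12:46266503-46266530, minus strand: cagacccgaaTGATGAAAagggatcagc

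The window with a match in *SLC7A1* belonged to the outermost start of the gene, and the other 4 belonged to starts within the annotated gene. The first base of the match lay 97 bases before the start in *SLC1A5*, 7 before it in *SLC1A4*, 4 before it in *SLC38A1*, and at base 8 and base 38 from the start in *SLC7A1* and *SLC3A2*. *SLC3A2* and *SLC1A5* each had 3 windows, *SLC1A4* and *SLC38A1* 2, and *SLC7A1* 1. The windows of *SLC7A5*, *SLC7A6*, *SLC7A7*, *SLC38A2* and *SLC6A9* did not hold these letters. A match describes the letters only, and no binding was measured.

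*SLC3A2* (ENSG00000168003, chr11:62856004-62888880 in GENCODE release 44) encodes the heavy chain that carries the SLC7 light chains to the membrane. Values are normalized counts, that is, counts divided by the TMM-scaled library size and set to a common library of 11935039 counts. The PBS samples had 1551, 1775, 1665 and 1750.1, and the ATB samples had 1766, 1863, 1727 and 1743. The 6 FWctl samples ranged from 8552 through a median of 9670.5 to 12069, and the 7 FWatb samples ranged from 1579 through 1902 to 2141. Every FWctl sample thus lay above every sample of the other groups, while the PBS, FWatb and ATB ranges overlapped. The mean rose from 1685 ± 101 (SD, n = 4) with PBS to 9824 ± 1326 (SD, n = 6) with FWctl, a LogFC (log2 fold change) of 2.54 ± 0.09 (SE; adjusted p = 3.17e-24, from the quasi-likelihood test of edgeR, adjusted after Benjamini and Hochberg for all genes tested, as for every adjusted p below). With FWatb the mean was 1887 ± 189 (SD, n = 7), a LogFC of -2.38 ± 0.08 from FWctl (adjusted p = 9.81e-27) and of 0.16 ± 0.08 from PBS (adjusted p = 0.253).

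*SLC7A5* (ENSG00000103257, chr16:87830023-87869507), the light chain of LAT1, exchanges intracellular glutamine for leucine and other large neutral amino acids. The PBS samples had 304, 323, 297 and 273 normalized counts, and the ATB samples had 257, 367, 174 and 274. With FWctl the samples ranged from 1058 through a median of 1184 to 1326, and the FWatb samples from 423 through 579 to 796. All 7 FWatb samples lay above all 4 PBS samples and below all 6 FWctl samples, an intermediate level that among the 10 only *SLC38A1* shared. FWctl was 4.01-fold above PBS (SE 0.13 on the log2 scale, adjusted p = 3.62e-16). FWatb was 1.89-fold above PBS (LogFC 0.92 ± 0.13, adjusted p = 3.99e-06), and FWatb differed from FWctl by -1.08 ± 0.11 (adjusted p = 1.96e-11). Scaled by library size alone, the last value was -0.98, so that its size was under the LogFC of 1 that the study's methods required in that comparison.

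*SLC7A7* (ENSG00000155465, chr14:22773222-22829820), the light chain of y+LAT1, releases arginine and lysine across the basolateral membrane of enterocytes in exchange for neutral amino acids and sodium. The PBS samples had 6581, 6963, 7830.0 and 7396 normalized counts, and the ATB samples had 7373, 8077, 7828 and 8089. The FWctl samples ranged from 4909 through a median of 5198 to 5674, and the FWatb samples from 5247 through 5629 to 5871. All FWctl and all FWatb samples were below all PBS samples, and the 2 faecal waters overlapped. The LogFC from PBS was -0.46 ± 0.07 with FWctl (adjusted p = 8.71e-07) and -0.35 ± 0.07 with FWatb (adjusted p = 0.000607), and the difference between the waters was 0.11 ± 0.06 (adjusted p = 0.145). Within the high ribosomal DNA set, the FWatb value was -0.26 (adjusted p = 0.066), and the FWctl value was -0.38 there and -0.62 within the low set. The difference between the waters passed the test with DESeq2 (0.13, adjusted p = 0.0177), by library size alone (0.22, adjusted p = 0.00376) and without PBS replicate 3, FWctl replicate 7, or ATB replicate 2 or 4 (0.15, adjusted p 0.0386 to 0.0486). As these are bulk samples, fewer cells with a transcript and less transcript per cell cannot be told apart, for *SLC7A7* as for the other genes.

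*SLC7A6* (ENSG00000103064, chr16:68264516-68301823) encodes the light chain of y+LAT2, a related exchanger. It had 299 to 387 normalized counts in PBS, 238 to 421 in FWctl, 289 to 405 in FWatb and 309 to 441 in ATB. The 4 ranges overlapped, and the LogFC was -0.0009 ± 0.12 for FWctl (adjusted p = 0.997) and 0.04 ± 0.12 for FWatb (adjusted p = 0.91) against PBS. Of its 7588 bases of exon, 3372 (44.44%) overlapped those of *SLC7A6OS* on the opposite strand, which had 62.6 ± 18.4 (SD, n = 4) normalized counts with PBS and 95.6 ± 14.1 (SD, n = 6) with FWctl. The strand setting of the counting was not stated, so reads of the 2 genes may not be separated there.

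**Figure D1:**
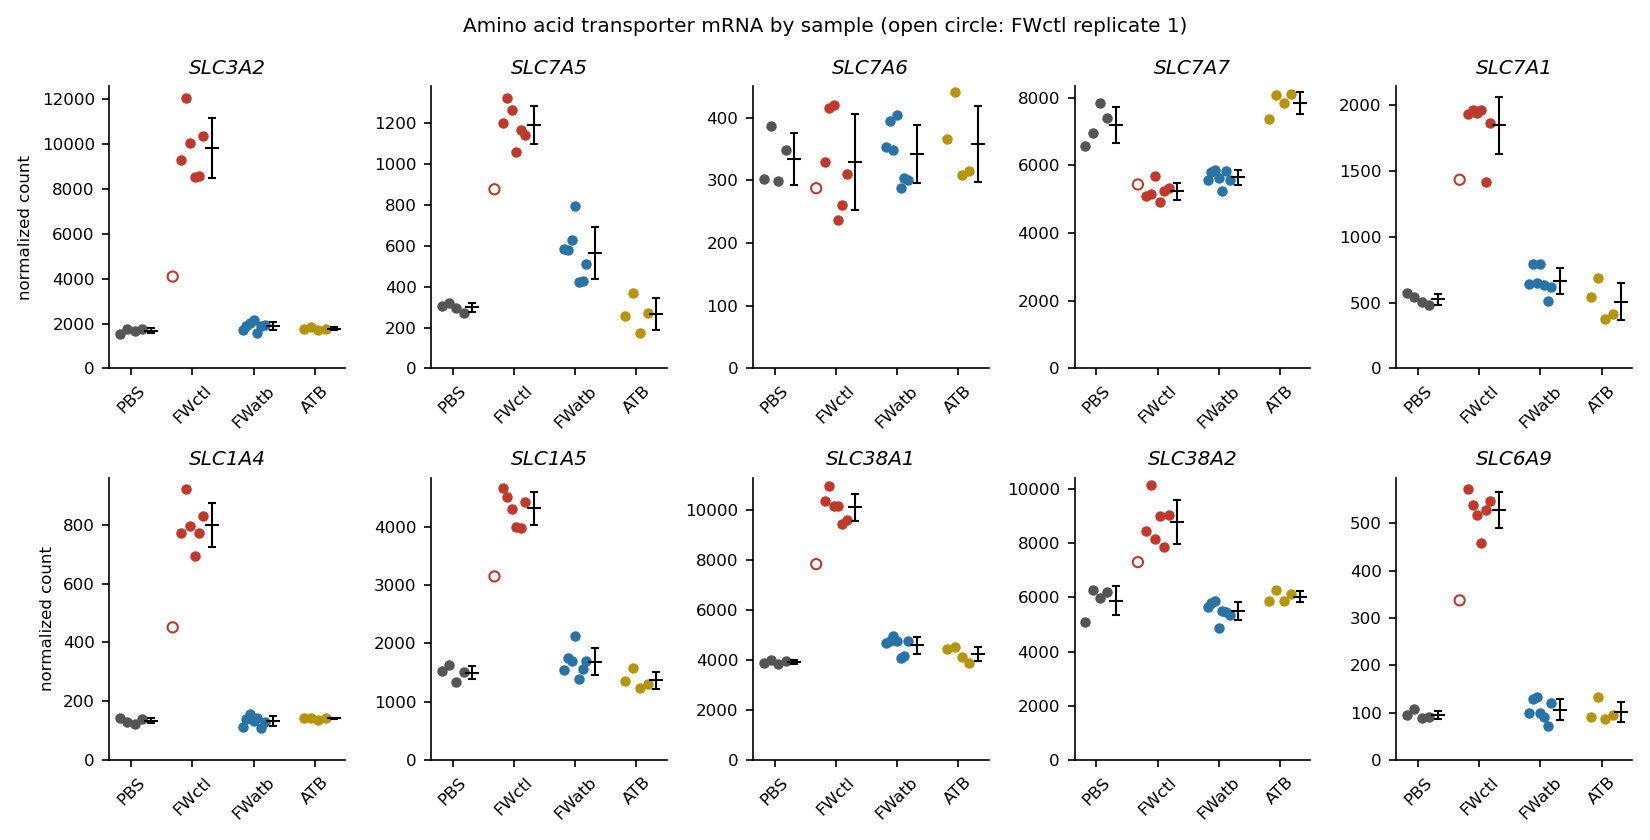
Normalized counts (vertical axes, from 0) of the 10 transporters by condition, 1 point per sample, with the mean and SD as black bars and FWctl replicate 1 as an open circle outside the mean. In 8 panels the 6 FWctl points lie above all PBS points, in the *SLC7A7* panel they lie below them, and in the *SLC7A6* panel all groups overlap.

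The mRNA of the light chains was compared with that of their heavy chain per length, as CPM per kb, the count scaled to the size of the library and divided by the kilobases of exon. The light chains set side by side were *SLC7A5*, *SLC7A6*, *SLC7A7*, *SLC7A11*, the cystine and glutamate exchanger, and *SLC7A8*, a second exchanger of neutral amino acids named here only for its pairing with SLC3A2. With PBS, *SLC7A7* made up 90.2 ± 1.33% (SD, n = 4) of their summed level, and *SLC7A5* 4.25 ± 0.47%. With FWctl, *SLC7A7* made up 52.4 ± 2.12% (SD, n = 6), *SLC7A11* 31.7 ± 2.78% and *SLC7A5* 13.5 ± 0.92%. With FWatb the share of *SLC7A7* was 82.7 ± 2.26% (SD, n = 7), that of *SLC7A5* 9.27 ± 1.78% and that of *SLC7A11* 3.31 ± 0.71%, and the ATB shares were 91.4 ± 1.78% (SD, n = 4) for *SLC7A7* and 3.50 ± 0.91% for *SLC7A5*. The share of *SLC7A8* was 0.78 ± 0.15% with PBS, 0.18 ± 0.06% with FWctl and 1.16 ± 0.14% with FWatb. Its LogFC with FWctl against PBS was -1.74 ± 0.21 (adjusted p = 2.96e-09). The share of *SLC7A6* was 2.98 ± 0.42%, 2.32 ± 0.48% and 3.53 ± 0.36% in the same order. The ratio of the summed light chains to *SLC3A2* was 5.64 ± 0.35 with PBS, 1.22 ± 0.12 with FWctl, 4.33 ± 0.27 with FWatb and 5.76 ± 0.22 with ATB. These shares depend on the length used. With the longest transcript in place of all exons, *SLC7A7* made up 93.7% with PBS and 65.6% with FWctl, and the ratio to *SLC3A2* was 4.30 and 0.773. They are descriptions of mRNA, and no protein was measured.

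**Figure D2:**
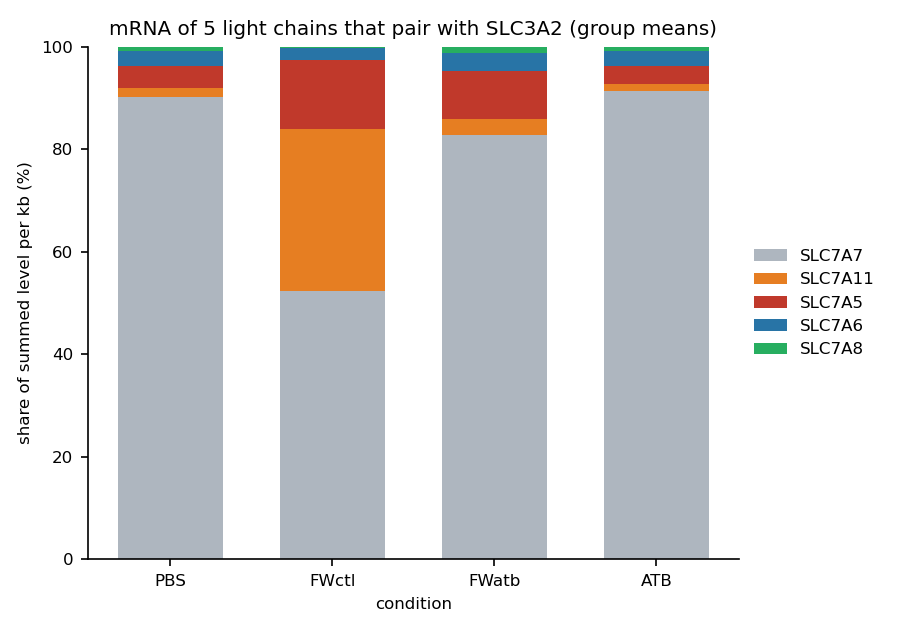
Share in percent (vertical axis, 0 to 100) of 5 light chain transcripts in their summed level per kb of exon, as group means in each condition. *SLC7A7* takes 90.2% of the bar with PBS and 52.4% with FWctl, where *SLC7A11* takes 31.7%.

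*SLC7A1* (ENSG00000139514, chr13:29509414-29595688), the cationic amino acid transporter CAT1, brings in arginine and lysine. It had 576, 544, 502 and 480.1 normalized counts in the PBS samples and 542, 691, 378 and 415 in the ATB samples. The FWctl samples ranged from 1414 through a median of 1936 to 1967, and the FWatb samples from 512 through 642 to 792. FWctl was above every PBS and FWatb sample, and FWatb overlapped PBS. The LogFC was 1.82 ± 0.12 for FWctl against PBS (adjusted p = 1.96e-16) and -1.48 ± 0.10 for FWatb against FWctl (adjusted p = 1.77e-16). For FWatb against PBS it was 0.34 ± 0.11 (adjusted p = 0.0492). That call did not hold with DESeq2's size factors in edgeR (adjusted p = 0.0546), with edgeR's filterByExpr (adjusted p = 0.0552) or with all 22 samples (adjusted p = 0.119). Nor did it hold with the library set as a term (0.27, adjusted p = 0.177) or within the high ribosomal DNA set (0.24, adjusted p = 0.284). It was lost in 14 of the 21 fits with 1 library left out (adjusted p 0.0537 to 0.164), namely any PBS sample, FWctl replicate 2, 4, 6 or 8, FWatb replicate 1, 2, 3, 4 or 8, or ATB replicate 1.

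*SLC1A4* (ENSG00000115902, chr2:64988477-65023865), or ASCT1, exchanges alanine, serine, cysteine and threonine with sodium. It had the largest LogFC of the 10 with FWctl against PBS, within the standard errors of *SLC3A2* and *SLC6A9*. The PBS samples had 142, 130.2, 124 and 139.6 normalized counts, and the ATB samples had 143, 143, 137 and 143. The FWctl samples ranged from 695 through a median of 785 to 921, and the FWatb samples from 107 through 132 to 157. FWatb values spanned the whole PBS range, and FWctl was 5.98-fold above PBS (LogFC 2.58 ± 0.09, adjusted p = 2.01e-24). The LogFC was -2.60 ± 0.08 for FWatb against FWctl (adjusted p = 2.4e-27) and -0.02 ± 0.10 for FWatb against PBS (adjusted p = 0.935).

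*SLC1A5* (ENSG00000105281, chr19:46774883-46788594), or ASCT2, the main sodium-dependent carrier of glutamine in many tumour cells, had 1343 to 1628 normalized counts in PBS and 1231 to 1578 in ATB. Under FWctl the values ranged from 3983 through a median of 4369 to 4677, and the FWatb samples from 1394 through 1701 to 2135. The FWctl range was clear of the other 3, with a LogFC of 1.53 ± 0.09 from PBS (adjusted p = 7.6e-18), and FWatb differed from it by -1.36 ± 0.07 (adjusted p = 5.46e-19). FWatb and PBS overlapped (LogFC 0.17 ± 0.08, adjusted p = 0.228). The long noncoding RNA ENSG00000275719 covered 780 of the 3332 bases of *SLC1A5* exon (23.41%) on the other strand and had 4.24 ± 3.24 (SD, n = 4) normalized counts with PBS and 19.2 ± 7.53 (SD, n = 6) with FWctl.

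*SLC38A1* (ENSG00000111371, chr12:46183063-46270017) and *SLC38A2* (ENSG00000134294, chr12:46358188-46372773), neighbours on the same strand, encode SNAT1 and SNAT2, sodium-coupled carriers of glutamine, alanine and other small neutral amino acids. *SLC38A1* had 3894, 3991, 3820.0 and 3948 normalized counts in PBS, 9421 to 10943 in FWctl (median 10150.1), 4086 to 4952 in FWatb (median 4749.8) and 3896 to 4503 in ATB. All FWctl samples stood above the rest, and all FWatb samples stood above all PBS samples by a smaller step. The LogFC of *SLC38A1* was 1.37 ± 0.08 for FWctl against PBS (adjusted p = 2.97e-18), -1.14 ± 0.06 for FWatb against FWctl (adjusted p = 1.81e-18) and 0.23 ± 0.07 for FWatb against PBS (adjusted p = 0.0354). The last call did not hold within the high ribosomal DNA set (0.22, adjusted p = 0.177), with all 22 samples (0.22, adjusted p = 0.123) or without the filter on low counts (0.22, adjusted p = 0.173). It was lost in 11 of the 21 fits with 1 library left out (adjusted p 0.0518 to 0.122), namely any PBS sample, FWctl replicate 4, FWatb replicate 1, 2, 3, 4 or 8, or ATB replicate 3.

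*SLC38A2*, whose mRNA is known to rise in many cells when amino acids are scarce, moved less than the other 7 genes that rose. The PBS samples had 5086, 6252, 5988 and 6182 normalized counts, and the ATB samples had 5846, 6252, 5871 and 6121. The 6 samples with FWctl ranged from 7869 through a median of 8722 to 10155, and the FWatb samples from 4863 through 5485 to 5852. FWctl was clear of the other groups, and FWatb overlapped PBS. The LogFC was 0.58 ± 0.08 for FWctl against PBS (adjusted p = 1.06e-07), -0.68 ± 0.07 for FWatb against FWctl (adjusted p = 4.56e-11) and -0.10 ± 0.08 for FWatb against PBS (adjusted p = 0.498).

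*SLC6A9* (ENSG00000196517, chr1:43991500-44031467), the glycine transporter GlyT1, had low counts with PBS, at 94.4, 108, 89.2 and 89.9 normalized counts, and 87.1 to 133 with ATB. The FWctl samples ranged from 459 through a median of 533 to 572, and the FWatb samples from 71.5 through 99.7 to 133. FWctl was above PBS without overlap (LogFC 2.48 ± 0.12, adjusted p = 1.13e-20), and the FWatb range enclosed the PBS range. FWatb differed from FWctl by -2.31 ± 0.10 (adjusted p = 2.24e-22) and from PBS by 0.18 ± 0.13 (adjusted p = 0.454). *CCDC24*, which shares 413 bases of exon with *SLC6A9* on the opposite strand, was lower with FWctl than with PBS (LogFC -0.87 ± 0.14, adjusted p = 2.77e-06).

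Across the 10 transporters, FWctl against PBS gave 8 higher and 1 lower at an adjusted p under 0.05, beside 24.3% of the 20373 genes called higher and 22.1% called lower. Of the 8, 7 also exceeded a LogFC of 1, beside 6.27% of all genes. The 8 were also the genes whose FWctl samples all lay above all PBS samples, which held for 17.8% of all genes. The median LogFC of the 10 was 1.67, beside 0.02 over all genes. With FWatb against FWctl, 8 were called lower and 0 higher, beside 25.4% and 23.4% of all genes. There were 7 with a LogFC below -1, all but *SLC38A2*, beside 6.60% of all genes, and all 8 had every FWatb sample below every FWctl sample, beside 13.3%. The median LogFC was -1.25, beside -0.01. As the 10 were chosen with earlier results of these data known, these shares describe them and are not a test.

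**Figure D3:**
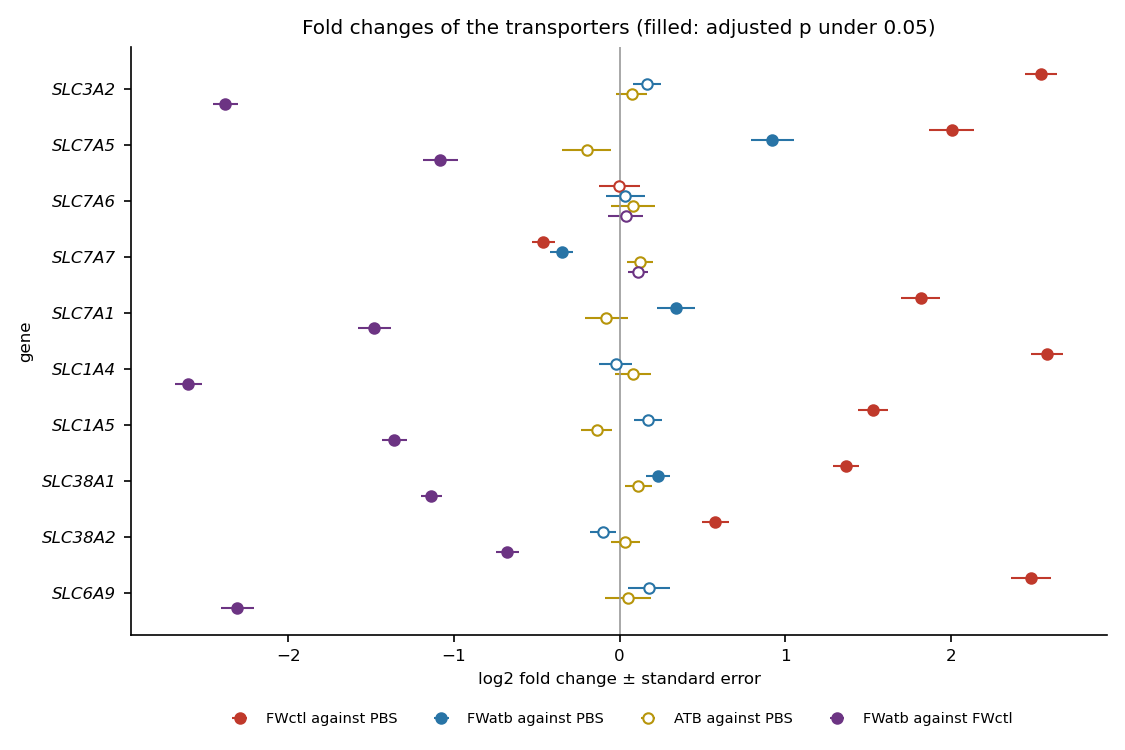
Log2 fold change with its standard error (horizontal axis) of each transporter in the 4 comparisons, by colour, with filled points for an adjusted p under 0.05. FWctl against PBS runs from -0.46 for *SLC7A7* to 2.58 for *SLC1A4*, and the ATB points are all open.

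With FWatb against PBS, 3 transporters were called higher (*SLC7A5*, *SLC38A1* and *SLC7A1*) and 1 lower (*SLC7A7*), beside 6.04% and 3.95% of all genes, and the median LogFC was 0.17. Only the calls of *SLC7A5* and *SLC7A7* held in every fit with 1 library left out. With ATB against PBS, edgeR and DESeq2 each called 0 of the 10, and 0 had an unadjusted p under 0.05 in edgeR, beside 0.255% of all genes called higher and 0.0295% called lower. The LogFC with ATB ran from -0.20 for *SLC7A5* to 0.12 for *SLC7A7*, and the smallest adjusted p was 0.764.

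The order of the 10 within a condition was read per length. With PBS, *SLC7A7* stood first at 112 ± 8.43 CPM per kb (SD, n = 4), followed by *SLC38A2* at 75.7 ± 6.94, *SLC1A5* at 37.7 ± 2.96, *SLC38A1* at 32.7 ± 0.62 and *SLC3A2* at 22.1 ± 1.32. Lower down were *SLC7A1* at 5.73 ± 0.47, *SLC7A5* at 5.26 ± 0.36, *SLC7A6* at 3.69 ± 0.46, *SLC1A4* at 1.62 ± 0.10 and *SLC6A9* at 1.52 ± 0.14. *SLC7A1* and *SLC7A5*, and *SLC1A4* and *SLC6A9*, did not differ beyond their spread. With FWctl, *SLC3A2* stood first at 129 ± 17.4 CPM per kb (SD, n = 6), within its spread of *SLC38A2* at 113 ± 10.5, while *SLC7A7*, at 81.6 ± 4.05, stood in place 5 beside *SLC38A1* at 84.5 ± 4.54. *SLC7A6* stood last at 3.63 ± 0.85. With FWatb and with ATB, *SLC7A7* was first again, at 88.2 ± 3.37 and 122 ± 5.23. Measured on the longest transcript, *SLC3A2* moved from place 5 to place 3 with PBS and remained first with FWctl, while *SLC7A7* with FWctl stood in place 3, at 145 ± 7.21 beside *SLC38A2* at 153 ± 14.3, rather than in place 5.

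**Figure D4:**
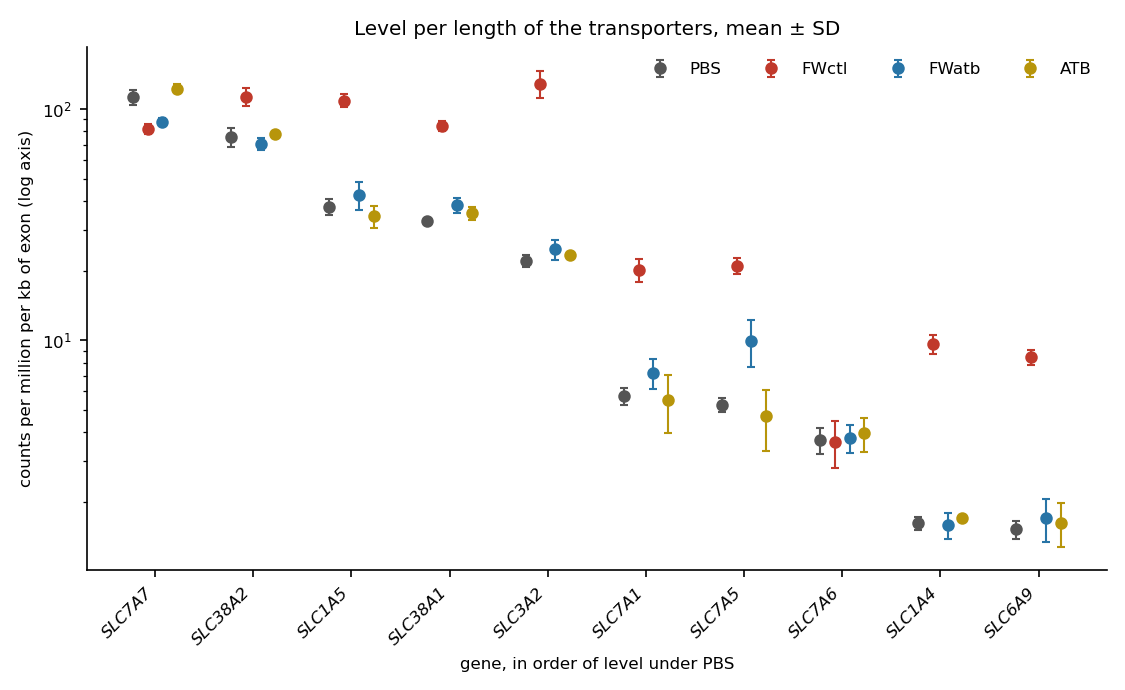
CPM per kb of exon (log axis), mean and SD over the samples of each condition, for the 10 transporters in order of their level with PBS. *SLC7A7* leads with PBS at 112, and *SLC3A2* leads with FWctl at 129.

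FWctl replicate 1 had a smaller rise than the other FWctl samples in most of these genes. It lay between the highest PBS sample and the lowest of the other 6 FWctl samples for 7 transporters and within the FWctl range for *SLC7A1*, *SLC7A6* and *SLC7A7*. *SLC3A2* had 4096 normalized counts in it, against 8552 to 12069 in the other FWctl samples, which was 50.6% of their rise over PBS on the log2 scale. Over the 8 genes that rose this share ran from 50.6 to 80.3% (*SLC7A1*, 1434 normalized counts). With replicate 1 in the fit, the LogFC of FWctl against PBS was 2.39 for *SLC3A2*, 2.45 for *SLC1A4* and 0.51 for *SLC38A2*, and the number of transporters called stayed at 9. Within the high and the low ribosomal DNA set, FWctl against PBS also gave 9 calls in each, and the 8 rises ran from 0.56 (*SLC38A2*) to 2.48 (*SLC1A4*) in the high set and from 0.56 to 2.63 in the low set. Within the high set FWatb against FWctl gave 8 calls.

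Within conditions the transporters varied together to a modest degree. After each condition's mean was subtracted from log2 values, the median Spearman correlation of the 45 pairs over 21 samples was 0.383, and 41 were above 0. The highest was 0.758, between *SLC7A5* and *SLC7A6*, and the lowest was -0.287, between *SLC7A1* and *SLC7A7*. These are descriptions, since the values of a sample share its library and depth.

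Of 40 other amino acid transporter genes, 26 could be tested, and with FWctl against PBS 10 were called higher and 8 lower, beside 24.3% and 22.1% of all genes, with a median LogFC of 0.07. The largest rise was that of *SLC7A11*, from 248 ± 65.3 (SD, n = 4) to 5686 ± 556 (SD, n = 6) normalized counts (LogFC 4.54 ± 0.15, adjusted p = 1.55e-25). *SLC7A9*, the light chain of the cystine and dibasic amino acid carrier of the brush border, rose with a LogFC of 2.80 ± 0.12 (adjusted p = 4.57e-22). *SLC3A1*, of the same family as the heavy chain SLC3A2, had 12.6 ± 3.04 (SD, n = 4) normalized counts with PBS and 8.62 ± 2.73 (SD, n = 6) with FWctl. It was not called (LogFC -0.58 ± 0.37, adjusted p = 0.203). *SLC43A1* and *SLC43A2*, uniporters of large neutral amino acids, rose with 1.87 ± 0.10 and 1.32 ± 0.10, and the glutamine carrier *SLC38A3* with 0.98 ± 0.11. In the other direction, the proton-coupled carrier *SLC36A1* fell from 457 ± 21.8 to 211 ± 16.3 (LogFC -1.10 ± 0.10, adjusted p = 1.24e-12), and the taurine transporter *SLC6A6* from 1281 ± 101 to 676.8 ± 104.96 (LogFC -0.91 ± 0.09, adjusted p = 5.44e-11). With FWatb against FWctl, 10 were lower and 9 higher, beside 25.4% and 23.4% of all genes, among them *SLC7A11* at -3.80 ± 0.12 and *SLC36A1* at 1.38 ± 0.09. With FWatb against PBS 4 were higher (*SLC7A11*, *SLC6A6*, *SLC36A1* and *SLC1A3*) and 0 lower, beside 6.04% and 3.95% of all genes, where edgeR gave *SLC7A11* a LogFC of 0.74 ± 0.14. With ATB against PBS 1 was higher, *SLC1A1* (0.35 ± 0.07, adjusted p = 0.0219), beside 0.255% of all genes. *SLC3A1*, *SLC1A3* and *SLC1A1* were named after their values were seen.

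**Figure D5:**
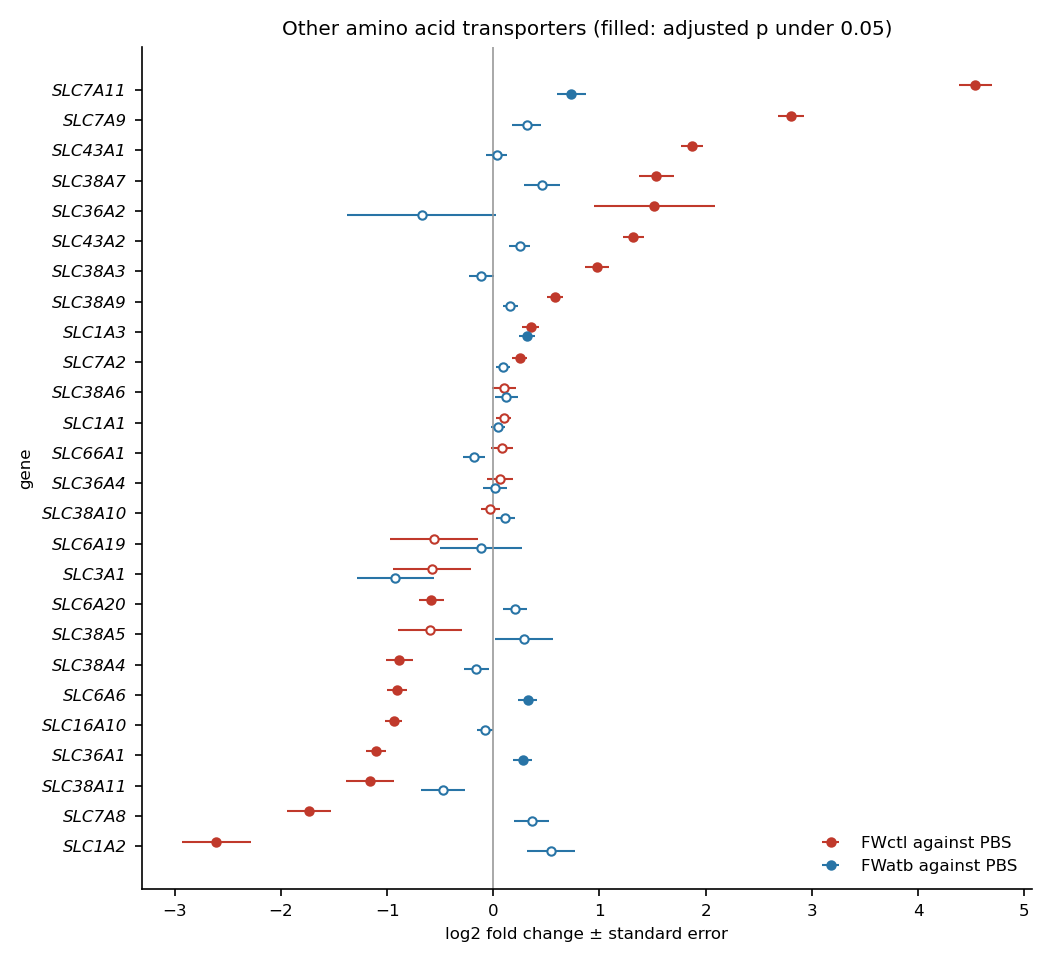
Log2 fold change with its standard error (horizontal axis) of the 26 other amino acid transporters tested, with FWctl (red) and FWatb (blue) against PBS and filled points for an adjusted p under 0.05. With FWctl 10 genes are higher and 8 lower, up to *SLC7A11* at 4.54, and with FWatb 4 are higher.

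Genes of amino acid sensing and charging were read beside the transporters, with the same shares of all genes as background (24.3% higher and 22.1% lower with FWctl against PBS). Their lists, and that of the other transporters, were also chosen with earlier results known, so the counts are descriptions. Of 18 genes of the ATF4 branch of the stress response, 17 rose with FWctl against PBS and 0 fell (median LogFC 1.46). With FWatb against FWctl 17 of the 18 fell (median -1.49), beside 25.4% of all genes called lower. The genes that rose with FWctl included *CHAC1*, which degrades glutathione, at 4.63 ± 0.15, *DDIT4*, an inhibitor of mTORC1, at 3.44 ± 0.12, and *PSAT1*, of serine synthesis, at 2.66 ± 0.10. Of 20 cytosolic tRNA synthetases, 18 rose and 1 fell with FWctl (median 1.57), led by *MARS1* at 2.20 ± 0.09, *YARS1* at 2.16 ± 0.10 and *AARS1* at 1.86 ± 0.09. With FWatb against PBS, 17 of the 20 rose (median 0.34), beside 6.04% of all genes. All 7 FWatb libraries but only 2 of the 4 PBS libraries were in the high ribosomal DNA set. The part of the library set in these calls was not examined for this list. Of 18 genes of mTORC1 amino acid sensing, 7 rose and 5 fell with FWctl, with the leucine sensor *SESN2*, which the ATF4 list also holds, at 2.28 ± 0.10, its relative *SESN3* at -1.36 ± 0.08 and the GTPase *RRAGD* at 0.71 ± 0.11. These counts, and those of the glutamine enzymes, were nearer to the shares of all genes than those of the ATF4 branch and the synthetases. Of the 4 eIF2alpha kinases, *EIF2AK4*, the kinase GCN2 that senses uncharged tRNA, rose with FWctl (0.21 ± 0.08, adjusted p = 0.0251), and *EIF2AK1* and *EIF2AK2* fell (-0.18 ± 0.07 and -0.22 ± 0.07). *EIF2AK3* was not called, at 507 ± 33.6 (SD, n = 4) normalized counts with PBS and 474 ± 28.5 (SD, n = 6) with FWctl. These values are mRNA levels, and the activity of the kinases was not measured. With FWatb against FWctl, *EIF2AK4* did not pass the test (-0.06 ± 0.07, adjusted p = 0.476), and *EIF2AK1* and *EIF2AK2* were higher (0.18 ± 0.06 and 0.24 ± 0.06). Of 9 enzymes of glutamine and glutamate, 3 rose and 3 fell, with glutamate dehydrogenase *GLUD1* at -1.50 ± 0.08, glutamine synthetase *GLUL* at -1.20 ± 0.09 and the alanine transaminase *GPT2* at 0.71 ± 0.08. *ASNS*, which the ATF4 list also holds, rose from 11.4 ± 3.98 (SD, n = 4) normalized counts with PBS to 153 ± 21.2 (SD, n = 6) with FWctl. In the mTORC1 list *RRAGC* rose from 51.2 ± 9.14 to 143 ± 28.2. *ASNS* and *RRAGC* were named after their values were seen. In ATB against PBS none of these 5 lists had a call in edgeR.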

How the data were processed

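Raw counts were deposited by the authors, who trimmed reads of a stranded, ribosomal RNA-depleted library with Trimmomatic 0.38, aligned them to GRCh38 with HISAT2 2.1.0 and counted them per gene with featureCounts (Subread 2.0.0). The strand setting is not given in the sources used here. Of 61487 identifiers, 61369 were found in GENCODE release 44, which gave symbols, lengths and coordinates. The transporters and gene lists were chosen with earlier results of these data known.

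Counts of 21 samples in 4 groups were tested with edgeR 4.0.16 (R 4.3.3; TMM, quasi-likelihood test, Benjamini-Hochberg adjustment at 0.05), keeping genes with more than 5 counts in 3 samples or more. The steps were tested on simulated data. Python 3.11.15 with scipy 1.17.1 made the tables. Alternatives were all 22 samples, DESeq2 1.42.0, other scalings and filters, only the groups compared, a replicate block, the library set, and each library left out. They were fitted to all genes, and their values are reported for the 10 transporters alone. All 10 transporters were named. Other transporters were named where the mean normalized count reached 100, with an adjusted p under 0.05 and an absolute LogFC of at least 1 in either main comparison, and from each other list the 3 largest changes with FWctl against PBS that passed the test, from the same mean upwards. Genes that overlap a transporter were named too. No replicate pair matched within sampling noise. Nothing states that PBS and ATB replicates were separate cultures, so p-values measure the spread between these samples, which may be technical. Precision is limited by 4 to 7 samples a group.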

Additional observations from a re-analysis of the deposited data

Results flagged for a closer look

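In all, 50 sets of 4 to 7 samples were examined, the 10 transporters in each condition and in FWctl with replicate 1, for a highest or lowest sample far from the rest by Dixon's criterion, and chance alone would mark about 1 set in 20. In *SLC7A1*, FWctl replicate 7 had 1414 normalized counts against 1865 to 1967 in the other 5 FWctl samples, still above every PBS and FWatb sample. In *SLC1A4*, ATB replicate 3 had 137 against 143 in each of the other 3 ATB samples, a small gap in a narrow group. FWctl replicate 1 was not marked for any transporter.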

How the results depend on the processing

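With FWctl against PBS, 9 of the 10 transporters passed the threshold in every alternative run, and with FWatb against FWctl 8 or 9 did, of which *SLC7A7* was the one added. With ATB against PBS 0 did in any. The least stable comparison was FWatb against PBS, with 4 calls, 2 with all 22 samples, 1 within the high ribosomal DNA set and 2 to 4 with 1 library left out. The causes were not tested. With the replicate block, 6 were called there, *SLC3A2* (0.22, adjusted p = 0.0455) and *SLC1A5* (0.23, adjusted p = 0.0292) being added, and *SLC7A7* passed between the waters (0.15, adjusted p = 0.0253). Whether a replicate number marks a mouse is an inference. The deviations of same-numbered FWctl and FWatb samples correlated by -0.002 to 0.098 over 6 pairs, and 3 of 6 FWctl samples correlated best with their own number. In all 6 pairs FWatb was lower for the 8 genes called (exact two-sided sign-flip p = 0.0312, the smallest possible). Every FWatb sample lay below every FWctl sample for these 8, so any pairing gives that result. It is therefore no separate test of them. For *SLC7A7*, FWatb was higher in 5 of 6 pairs (exact sign-flip p = 0.0625), or in 6 of 7 with FWctl replicate 1 (exact sign-flip p = 0.0312).

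Of 1250 LogFC values under alternatives, 24 changed sign, all of them uncalled and near 0. For *SLC7A6* these were 0.16 with the replicate block and 0.15 within the low ribosomal DNA set for FWctl against PBS, and -0.011 within the high set for FWatb against PBS. *SLC1A4* for FWatb against PBS was 0.0534 by library size alone, 0.0209 with the replicate block and 0.0102 with the library set as a term, and *SLC38A2* for ATB against PBS was -0.0475 within the low set. With 1 library left out, *SLC7A6* ranged from -0.1079 to 0.0248 for FWctl and from -0.0231 to 0.1016 for FWatb against PBS, from -0.0216 to 0.1346 for ATB against PBS, and from -0.0003 to 0.1371 for FWatb against FWctl. *SLC1A4* ranged from -0.0809 to 0.0179 for FWatb against PBS. With ATB against PBS, *SLC7A1* ranged from -0.2444 to 0.0292, *SLC38A2* from -0.0451 to 0.0597 and *SLC6A9* from -0.0608 to 0.1003. Of the others, 1183 kept direction and side of the threshold, 34 lost a call and 9 gained one. Within the high set all FWatb samples but only 2 PBS samples remain, and ATB could not be compared there.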
